A study of Mus musculus with 8 samples.

Results

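The Bcl2 family was examined in mouse thyroids irradiated from within by a radioisotope, through 10 of its genes: the pore-forming effectors Bax and Bak1, the BH3-only genes Bbc3, Pmaip1, Bid, Bad and Bcl2l11, and the anti-apoptotic genes Bcl2, Bcl2l1 and Mcl1. The genes were given by name, and every array probe carrying one of these names was taken, which gave 14 probes of the 55681 on the array and 10 of the 19965 genes with a RefSeq probe. All 10 genes had at least 1 probe, and none was removed by a filter on low signal.

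Thyroid RNA from 8 female Balb/c mice, 8 weeks old, was hybridised to 8 one-colour Agilent mouse arrays, 4 per group. The exposed group, labelled Tc, had received 99mTcO4-, a form of technetium-99m that the thyroid takes up through its iodide transporter, with an absorbed dose to the gland of 30 Gy, and RNA was collected 24 hours after administration. Its arrays are named S539, S588, S589 and S590, as in the labels. The control group, labelled Ct, is described as untreated in one place and as given saline in another by the study, and its arrays are named control replicates 1 to 4. Each array holds whole gland, with follicular cells, vessels, stroma and blood-borne cells together, so that fewer cells of a type and less RNA per cell cannot be told apart.

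Proteins of this family decide whether the outer mitochondrial membrane stays closed. Anti-apoptotic members such as Bcl-2, Bcl-xL (the long product of Bcl2l1) and Mcl-1 hold Bax and Bak in check. BH3-only proteins bind these guardians, or the effectors themselves, and once Bax or Bak forms pores, cytochrome c leaves the mitochondrion and caspases are activated. After DNA damage the transcription factor p53 raises transcription of several of these genes, of which Bax, Bbc3 (Puma) and Pmaip1 (Noxa) are textbook cases.

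The upstream sequences of both effectors are shown because Bax and Bak1 encode proteins of the same role and their signals moved differently. In 300-base windows around gene starts (RefSeq, GRCm38.p6, C57BL/6J reference sequence and not that of Balb/c), from 250 bases before to 50 after the start, the p53 half-site was searched. It is a motif of 10 letters that is its own reverse complement, so both strands are covered at once. The 250 bases before the start are given here 5′ to 3′ on the strand of the gene, which is the minus strand for both, at chr7:45466899-45467148 for Bax and chr17:27028628-27028877 for Bak1, with the half-site in capitals.
Bax: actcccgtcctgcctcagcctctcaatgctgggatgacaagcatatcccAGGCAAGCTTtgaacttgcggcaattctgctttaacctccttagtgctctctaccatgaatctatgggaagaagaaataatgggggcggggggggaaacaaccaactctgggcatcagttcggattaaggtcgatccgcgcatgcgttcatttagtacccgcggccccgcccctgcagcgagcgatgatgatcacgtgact
Bak1: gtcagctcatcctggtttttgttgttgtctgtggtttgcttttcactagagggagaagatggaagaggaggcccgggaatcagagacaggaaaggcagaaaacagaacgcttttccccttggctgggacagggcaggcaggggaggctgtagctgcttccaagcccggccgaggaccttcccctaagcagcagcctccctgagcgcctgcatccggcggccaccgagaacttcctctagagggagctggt

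The Bax window held 1 half-site, whose first base lies 201 bases before the start, and the Bak1 window held none. The table matched 9 of the member genes, with 15 windows in all since several genes have more than 1 start, and 1 of the 15 held the motif. Of all 32851 windows, 8.36% held it. A match of these letters is a description of the sequence, and its absence from the other windows says nothing about p53 acting elsewhere in the gene. The windows of the members ranged from 49.3% to 78.0% in GC content, beside a median of 52.7% over all windows.

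Values are log2 signals after quantile normalization of the 8 arrays, and differences are exposed minus control on that scale. Each probe was tested with limma's moderated test, and a probe was called when its p, adjusted over all 55681 probes by the Benjamini-Hochberg method, was under 0.05. By this rule 4 of the 10 member genes were called, Pmaip1, Bax, Bbc3 and Bcl2l1, all of them higher after exposure, and no member was called lower. Of all RefSeq genes 1.22% were called, 0.917% as higher and 0.306% as lower. Among the 14 probes 4 were called, beside 0.781% of all probes, 0.587% of them as higher and 0.194% as lower. The median log2 fold change over the 10 genes was 0.43, beside -0.03 over all RefSeq genes. By role, 1 of 2 effectors, 2 of 5 BH3-only genes and 1 of 3 anti-apoptotic genes were called, so the calls lay on both the pro-apoptotic and the anti-apoptotic side of the family.

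**Figure D1:**
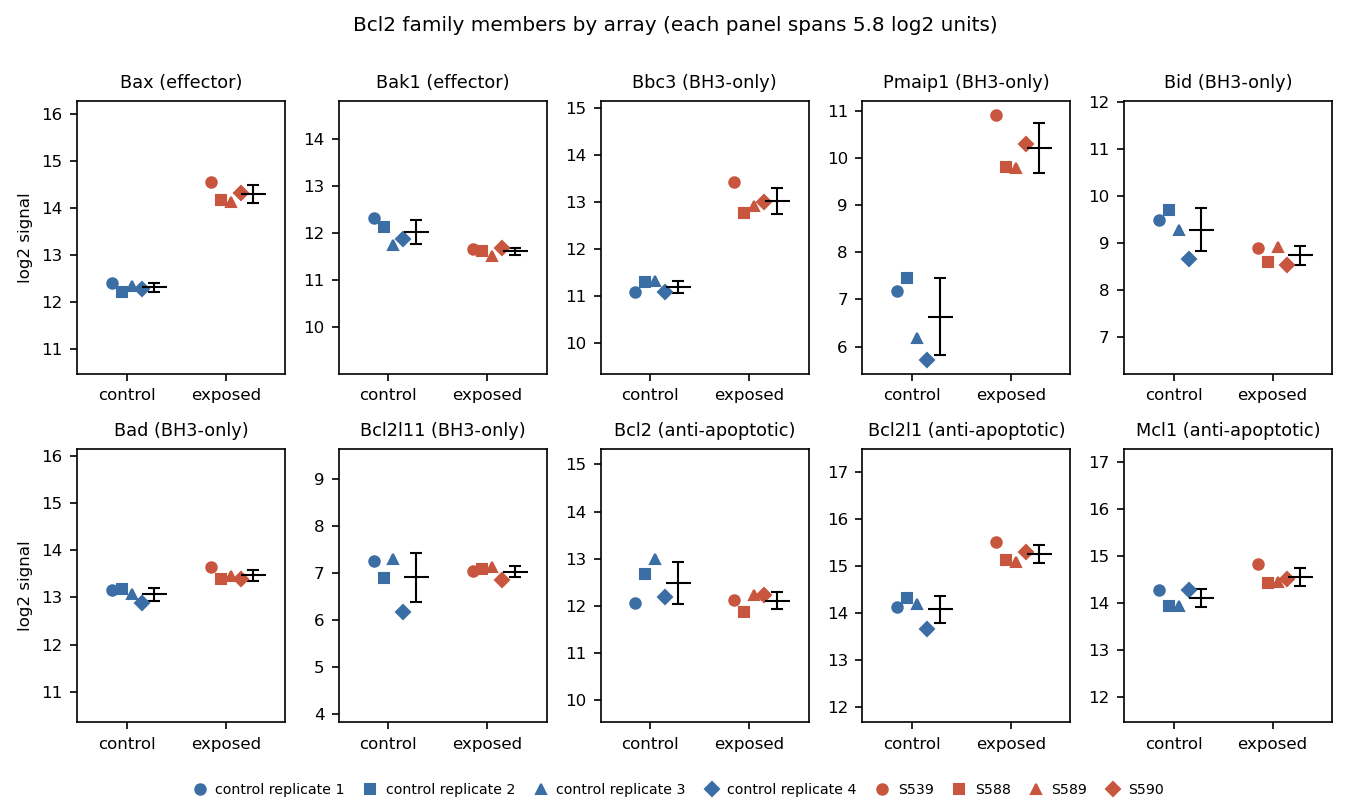
Log2 signal (y axis) of each member gene on every array, by group, using the RefSeq probe of highest mean signal; horizontal bars and whiskers are the mean and SD of 4 arrays, and all panels span the same number of log2 units. Bax, Bbc3, Pmaip1 and Bcl2l1 show wide gaps between control and exposed arrays, while Bid, Bcl2l11 and Bcl2 overlap.

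Bax encodes an effector that moves from the cytosol to the mitochondrial membrane and forms the pore. Its log2 signal was 12.41, 12.21, 12.35 and 12.27 on control replicates 1 to 4, and 14.55, 14.18, 14.13 and 14.31 on S539, S588, S589 and S590. The controls lay within a narrow band and every exposed array lay above all of them, with 1.72 log2 units between the highest control and the lowest exposed array. The signal rose by a log2 fold change of 1.98 (SE 0.14, n = 4 per group), which is 3.95-fold with a 95% confidence interval from 3.15-fold to 4.95-fold (limma, adjusted p = 0.00286). Among all probes this was the 15th smallest p but only the 263rd largest rise, and the spread was small (SD 0.087 in controls and 0.19 in exposed glands). The call was kept in all 8 fits that left out 1 array, with adjusted p from 0.00721 to 0.0193. The probe, A_55_P2137406, lies at chr7:52717122-52717181 (mm9, minus strand) and is annotated to NM_007527.

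Bak1 encodes the other effector, which resides in the mitochondrial membrane. Its log2 signal was 12.31, 12.12, 11.74 and 11.87 on control replicates 1 to 4, and 11.65, 11.61, 11.50 and 11.67 on S539, S588, S589 and S590. All exposed arrays were below all controls, but only 0.075 log2 units separated the lowest control from the highest exposed array. The log2 fold change was -0.40 (SE 0.16, adjusted p = 0.37, limma), which did not pass the test. The highest controls were replicates 1 and 2, which also carried by far the highest signal of T cell and thymocyte genes. Without both, the log2 fold change of Bak1 was -0.20 (adjusted p = 0.584, range over its alternatives 0.19 to 0.596).

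The changes of both effectors differed from each other. Within an array, the log2 signal of Bax minus that of Bak1 was 2.38 higher after exposure (SE 0.145, n = 4 per group, exact permutation test over 70 assignments, two-sided p = 0.0286, and 0.0286 after adjustment over the 3 pairs compared here). This is the smallest p that 4 against 4 arrays can give. Most of the difference is the rise of Bax itself, so this p is not separate from the call of Bax. With both of those controls removed the difference was 2.18, and a design of that size could not pass the threshold (adjusted exact p = 0.0667, range over its alternatives 0.0286 to 0.0667).

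The BH3-only genes fell into 2 called and 3 not called. Pmaip1 encodes Noxa, a BH3-only protein that binds chiefly Mcl-1. Its log2 signal was 7.17, 7.45, 6.19 and 5.72 on control replicates 1 to 4, and 10.92, 9.82, 9.80 and 10.29 on S539, S588, S589 and S590. The controls were spread over a wide range near the dim end, with 3 of 4 scored as well above background, and the exposed arrays were all far above them and all well above background. The signal rose by 3.58 (SE 0.44), or 11.9-fold with a 95% confidence interval from 5.91-fold to 24.1-fold (limma, adjusted p = 0.0162), the largest rise in the family and the 19th largest among all probes. The size depended on the background treatment of this dim probe: the log2 fold change was 2.65 with normexp correction, 2.71 without correction and 2.73 with the deposited values, and the call was kept in these 3 (adjusted p from 0.00243 to 0.00274, range over its alternatives 0.00243 to 0.0642). The call depended on which array was left out. Without control replicate 3, S539, S589 or S590 in turn the adjusted p was above the threshold, and in the other 4 fits the call was kept. Over the 8 such fits the adjusted p (limma) ranged from 0.0305 to 0.0642, with log2 fold changes from 3.27 to 3.85.

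Bbc3 encodes Puma, a BH3-only protein that binds all anti-apoptotic members. Its log2 signal was 11.08, 11.29, 11.31 and 11.08 on control replicates 1 to 4, and 13.41, 12.77, 12.91 and 12.99 on S539, S588, S589 and S590. The groups lay 1.45 log2 units apart at their nearest arrays. The signal rose by 1.83 (SE 0.17), or 3.55-fold with a 95% confidence interval from 2.69-fold to 4.67-fold (limma, adjusted p = 0.00633). Leaving out any 1 array kept the call (adjusted p from 0.0152 to 0.0381). Leaving out control replicates 1 and 2 together kept the size at 1.82 but not the call (adjusted p = 0.0789, range over its alternatives 0.001 to 0.0789). Its probe, A_51_P248122, lies at chr7:16903403-16903462 (mm9, plus strand).

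Bad encodes a BH3-only protein whose activity is set mainly by phosphorylation and by 14-3-3 proteins. Its RefSeq probe of highest mean signal read 13.15, 13.17, 13.07 and 12.87 on control replicates 1 to 4, and 13.64, 13.39, 13.46 and 13.39 on S539, S588, S589 and S590. Every exposed array was above every control, by a small margin. The log2 fold change was 0.40 (SE 0.13, adjusted p = 0.29, limma) at this probe and 0.64 (SE 0.17, adjusted p = 0.174, limma) at a second probe, which spans an intron of the gene within 486 genomic bases. Neither passed the test.

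Bid encodes a BH3-only protein that caspase-8 cleaves into its active form. Its log2 signal was 9.49, 9.71, 9.28 and 8.65 on control replicates 1 to 4, and 8.90, 8.59, 8.92 and 8.54 on S539, S588, S589 and S590. The groups overlapped through control replicate 4. The log2 fold change was -0.54 (SE 0.24, adjusted p = 0.426, limma), and it was -0.23 without control replicates 1 and 2 (adjusted p = 0.704, range over its alternatives 0.194 to 0.704).

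Bcl2l11 encodes Bim, which binds all anti-apoptotic members and can activate Bax directly. Both of its probes were dim, each well above background on 3 of 4 control arrays and on all exposed arrays. The first, A_51_P484880, read 7.26, 6.90, 7.31 and 6.17 on control replicates 1 to 4, and 7.05, 7.07, 7.12 and 6.85 on S539, S588, S589 and S590. The exposed arrays lay inside the range of the controls. The log2 fold change was 0.12 (SE 0.26, 95% confidence interval -0.48 to 0.72, adjusted p = 0.878, limma). The second probe, annotated to an Ensembl transcript, gave -0.18 (SE 0.22, adjusted p = 0.757, limma), so neither a rise nor a fall could be read for this gene.

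Among the anti-apoptotic genes, Bcl2l1 was the member called. Its probe of higher signal, A_55_P1974877, read 14.14, 14.32, 14.20 and 13.66 on control replicates 1 to 4, and 15.52, 15.13, 15.08 and 15.30 on S539, S588, S589 and S590. The groups were 0.76 log2 units apart at their nearest arrays. The signal rose by 1.18 (SE 0.19), or 2.26-fold with a 95% confidence interval from 1.67-fold to 3.06-fold (limma, adjusted p = 0.0395). This call lay close to the threshold and was lost in each of the 8 fits that left out 1 array (adjusted p from 0.0671 to 0.119), with log2 fold changes from 1.04 to 1.26.

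A second Bcl2l1 probe, A_52_P510877, starts 1637 bases nearer the 5′ end of the same transcript (base 674 against base 2311 of NM_009743). It read 7.33, 7.99, 8.56 and 8.20 on control replicates 1 to 4, and 9.78, 9.17, 9.89 and 9.71 on S539, S588, S589 and S590. The groups were again apart, and the log2 fold change was 1.62 (SE 0.29, adjusted p = 0.0584, limma). It passed the test under 6 of the 8 other ways of processing the same 8 arrays, with adjusted p from 0.00938 to 0.03 in those.

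Mcl1 encodes a short-lived guardian that is turned over by the proteasome. Its probe of higher signal read 14.27, 13.93, 13.95 and 14.27 on control replicates 1 to 4, and 14.82, 14.43, 14.45 and 14.51 on S539, S588, S589 and S590. The exposed arrays were above the controls at this probe (log2 fold change 0.45, SE 0.16, adjusted p = 0.321, limma) and at the second (0.61, SE 0.17, adjusted p = 0.213, limma). Neither difference passed the test. Within an array, Bcl2l1 minus Mcl1 was 0.73 higher after exposure (SE 0.228, exact permutation two-sided p = 0.0286, adjusted 0.0286 over the 3 pairs). Without any 1 of the exposed arrays the adjusted exact p was 0.0571, so this difference did not pass then (values over the 8 such comparisons 0.53 to 0.87).

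Bcl2, the founding member, read 12.06, 12.68, 13.00 and 12.18 on control replicates 1 to 4, and 12.13, 11.86, 12.23 and 12.22 on S539, S588, S589 and S590. The exposed arrays were close together and overlapped the lower controls. The log2 fold change was -0.37 (SE 0.23, 95% confidence interval -0.91 to 0.17, adjusted p = 0.55, limma), from 1 probe, annotated to NM_177410. The change of Bax exceeded that of Bcl2 by 2.35 on the log2 scale (SE 0.26, exact permutation two-sided p = 0.0286, adjusted 0.0286 over the 3 pairs). Here too most of the difference is the rise of Bax, so the p is not separate from its call.

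The 60-base probes behind the Bcl2 value, the second Bcl2l1 value and the first Bcl2l11 value are shown because each of these readings rests on which stretch of transcript was sampled. They are printed 5′ to 3′ as on the array, and no letter is in capitals since no motif was searched in them. The Bcl2 probe lies at chr1:108608970-108609029 on the minus strand, the Bcl2l1 probe at chr2:152655185-152655244 on the minus strand, and the Bcl2l11 probe crosses an intron within chr2:127972893-127983988 on the plus strand (all mm9).
Bcl2: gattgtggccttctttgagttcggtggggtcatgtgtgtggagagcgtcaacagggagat
Bcl2l1: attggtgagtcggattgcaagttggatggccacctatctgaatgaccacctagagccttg
Bcl2l11: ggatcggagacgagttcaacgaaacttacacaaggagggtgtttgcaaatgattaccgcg

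**Figure D2:**
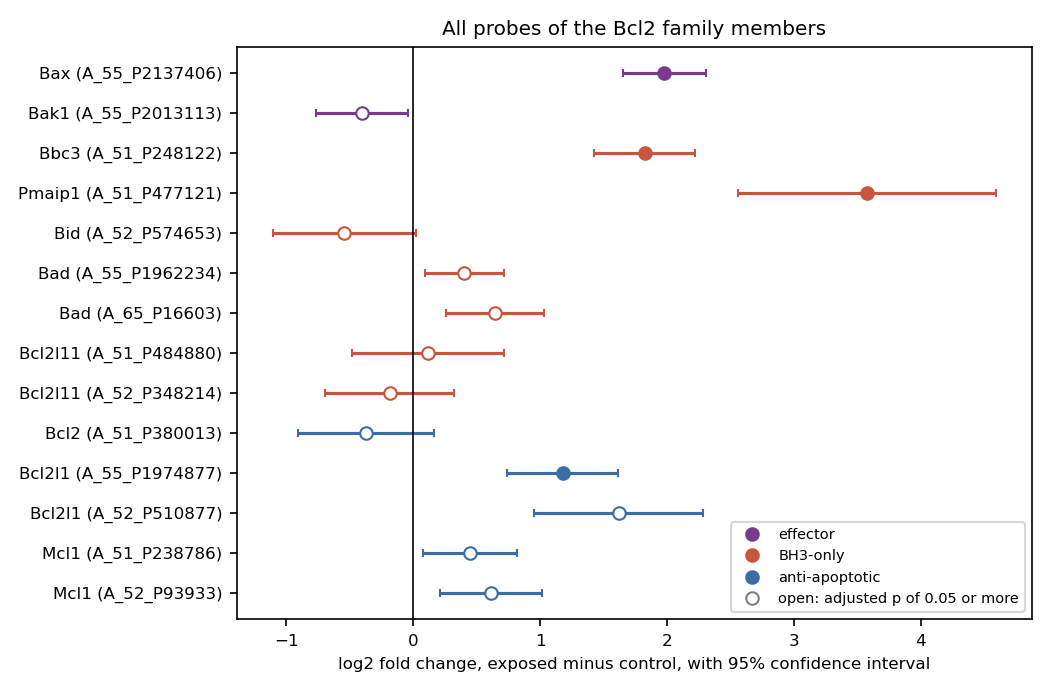
Log2 fold change, exposed minus control (x axis), with its 95% confidence interval for all 14 probes, coloured by role; filled points passed the adjusted threshold. The 4 filled points are all to the right of 0, from 1.18 for Bcl2l1 to 3.58 for Pmaip1, and the pairs of probes for Bad, Bcl2l1 and Mcl1 lie on the same side.

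Groups that did not overlap were frequent among the members. For 7 of the 10 genes, and 10 of the 14 probes, all exposed arrays lay on one side of all controls, beside 11.9% of all RefSeq genes and 9.11% of all probes. The 3 such genes that were not called, Bak1, Bad and Mcl1, had log2 fold changes between -0.40 and 0.45. Where a gene had 2 probes, both pointed the same way for Bad, Bcl2l1 and Mcl1, and opposite ways for Bcl2l11, whose changes were smaller than their errors.

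One exposed gland was often the highest. S539 had the highest exposed signal at all 4 called member probes and at 7 of the 14 member probes. It was also the highest exposed array at 68.8% of the 327 probes called higher, beside 30.4% of all probes. Without S539 the log2 fold change was 1.90 for Bax and 1.70 for Bbc3, and both passed the test, while Pmaip1 with 3.34 (adjusted p = 0.0542) and Bcl2l1 with 1.09 (adjusted p = 0.114) did not.

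The wider pathway was read from lists written from general knowledge. Of 16 other family genes, 14 had a RefSeq probe and none was called, with a median log2 fold change of -0.19 beside -0.03 over all RefSeq genes. At an unadjusted p under 0.05, 3 of them passed (Bcl2a1c, Bcl2a1d and Bmf), beside 14.9% of all RefSeq genes and 12.2% of all probes. The same 3 had groups that did not overlap, beside 11.9% of all RefSeq genes. Bcl2a1d, which encodes an A1-type anti-apoptotic protein of blood cells, read 9.29, 9.85, 8.91 and 8.89 on control replicates 1 to 4, and 7.72, 6.88, 7.65 and 8.03 on S539, S588, S589 and S590. Its log2 fold change was -1.66 (adjusted p = 0.0703, limma), and the paralogs of this family are nearly identical in sequence, so which of them the probe read is uncertain. The probe of Bcl2a1c was well above background on no exposed array. Bmf, a BH3-only gene, had a log2 fold change of -1.36 (adjusted p = 0.127, limma).

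Markers of other cells also differed between the groups. Over 11 macrophage and dendritic cell genes, the mean centred log2 signal was between 0.04 and 0.67 on the controls and between -0.61 and -0.21 on the exposed arrays, without overlap, although none of the 11 was called and the signals of the list were well above background on all arrays. The largest falls were those of Itgax (-2.09), H2-Ab1 (-1.81) and Cd74 (-1.57). Of the 11 genes, 9 were lower after exposure and 2 were higher, Cd68 (0.63) and Lyz2 (0.12). The part of these cells in the Bcl2a1d value was not tested.

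Downstream of the pore, 12 genes of the apoptosome and its execution were measured and none was called, with a median of 0.03. By unadjusted p under 0.05, 3 passed, beside 14.9% of all RefSeq genes. Each of the 3 had its groups apart, beside 11.9% of all RefSeq genes. Apaf1, the scaffold on which cytochrome c activates caspase-9, read 6.28, 7.26, 7.29 and 7.35 on control replicates 1 to 4, and 9.05, 7.87, 8.59 and 8.82 on S539, S588, S589 and S590 (log2 fold change 1.54, adjusted p = 0.11, limma). Birc3, an inhibitor of apoptosis, had a log2 fold change of -0.97 (adjusted p = 0.108, limma). Casp9, Cycs and Diablo ranged from -0.35 to 0.02 and overlapped between groups.

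None of 7 genes of the mitochondrial membrane was called (median -0.01; 1 at an unadjusted p under 0.05), among them Vdac2, which holds Bak at the membrane, with -0.12 (adjusted p = 0.7, limma). None of 12 regulators of the members was called (median 0.07; 1 at an unadjusted p under 0.05). Trp53 itself had a log2 fold change of -0.27 (adjusted p = 0.699, limma) with overlapping groups. The single regulator whose groups were apart was Ddit3, which encodes the stress factor CHOP, with 0.62 (adjusted p = 0.194, limma). Over all RefSeq genes, 14.9% had an unadjusted p under 0.05 and 11.9% had groups apart, so 1 such gene in lists of this size does not stand out.

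By contrast, 10 of 12 reference targets of p53 that lie outside the Bcl2 family were called higher, beside 0.917% of all RefSeq genes. The median log2 fold change of the 12 was 1.80, and it was positive for 11 of them. Cdkn1a, the cell cycle inhibitor p21, read 11.54, 10.88, 10.80 and 11.64 on control replicates 1 to 4, and 15.76, 14.89, 14.70 and 14.84 on S539, S588, S589 and S590, a rise of 3.83 (SE 0.30, adjusted p = 0.0032, limma). Mdm2, the ligase that degrades p53, rose by 2.32 (SE 0.23, adjusted p = 0.00714, limma). The other 8 called were Fas, Sesn2, Gdf15, Plk2, Btg2, Phlda3, Perp and Zmat3, with log2 fold changes from 1.17 to 4.23. Ccng1 also rose, with its groups apart, but did not pass (1.81, adjusted p = 0.0584, limma). Sesn1 (-0.33, adjusted p = 0.426, limma) did not pass either. The list was chosen with results of these data known, so the count is a description. It was 5 without control replicate 2, 6 without S539, 6 without S589 and 4 without S590.

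**Figure D3:**
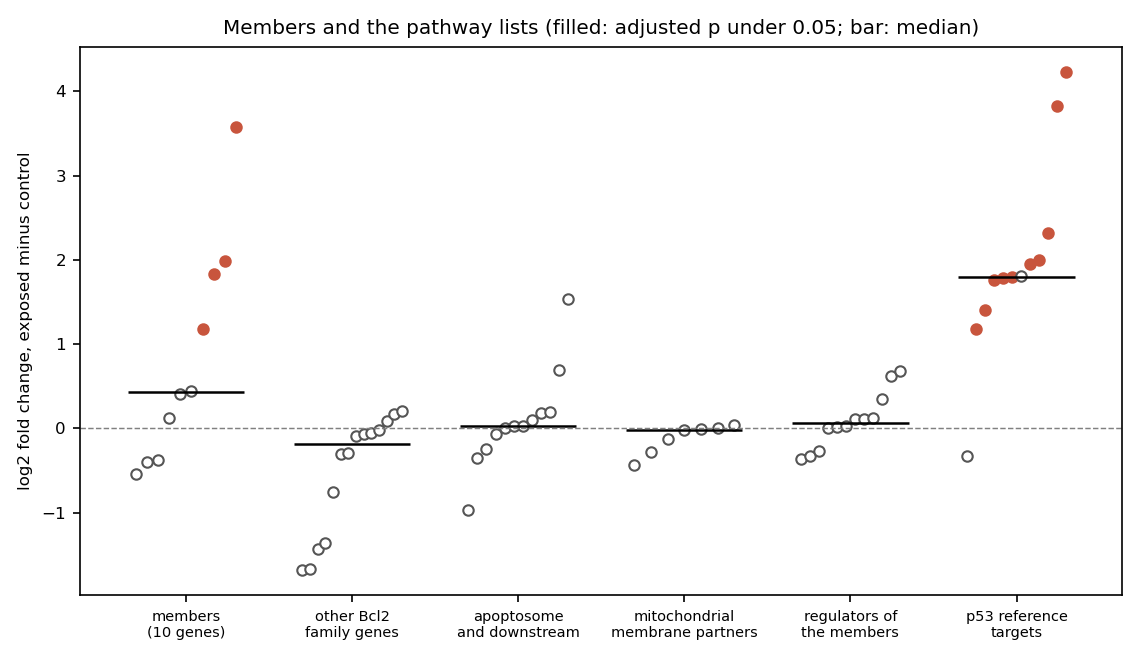
Log2 fold change, exposed minus control (y axis), of the 10 members and of each pathway list (x axis), 1 point per gene; filled points passed the adjusted threshold and bars mark medians. The 10 filled points of the p53 reference list lie above 1, and the other 4 lists hold no filled point.

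The list of T cell and thymocyte genes set 2 controls apart. Its mean centred log2 signal over 12 genes, among them Cd3d, Cd8a, Rag1 and Dntt, was 3.50, 2.50, -1.21 and -1.41 on control replicates 1 to 4, and -0.20, -0.85, -1.27 and -1.05 on S539, S588, S589 and S590. None of the 12 genes was called. The genes named here had log2 fold changes from -3.62 to -2.22, while Cd4 and Ptcra had -0.41 and -0.48. Of the 12, 11 were lower after exposure and 1, Cd247, was higher (0.94). The signal was well above background on 3 of the 8 arrays at Rag1 and Rag2, on 4 at Cd8a and on 5 at Cd8b1. At the probes used for Pmaip1, Bak1, Bid and Bad, 4 of the 10 genes, the same 2 control arrays were the highest of the controls. The share of all genes with this order was not computed, and a link between the list and these members was not tested.

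With these 2 controls removed, an alternative chosen after the data were seen, 2 members were called, Bax with a log2 fold change of 1.98 (adjusted p = 0.0393, range over its alternatives 0.000171 to 0.0393) and Pmaip1 with 4.26 (adjusted p = 0.0356, range over its alternatives 0.00243 to 0.0642). Bcl2l1 kept its size at 1.33 but not its call (adjusted p = 0.138, range over its alternatives 0.012 to 0.138). Over all probes 89 were then called in place of 435, and 1 of the p53 reference targets. The rises of Bax, Bbc3, Pmaip1 and Bcl2l1 were between 1.33 and 4.26 in this comparison, as large as or within 0.01 of those over all arrays.

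**Figure D4:**
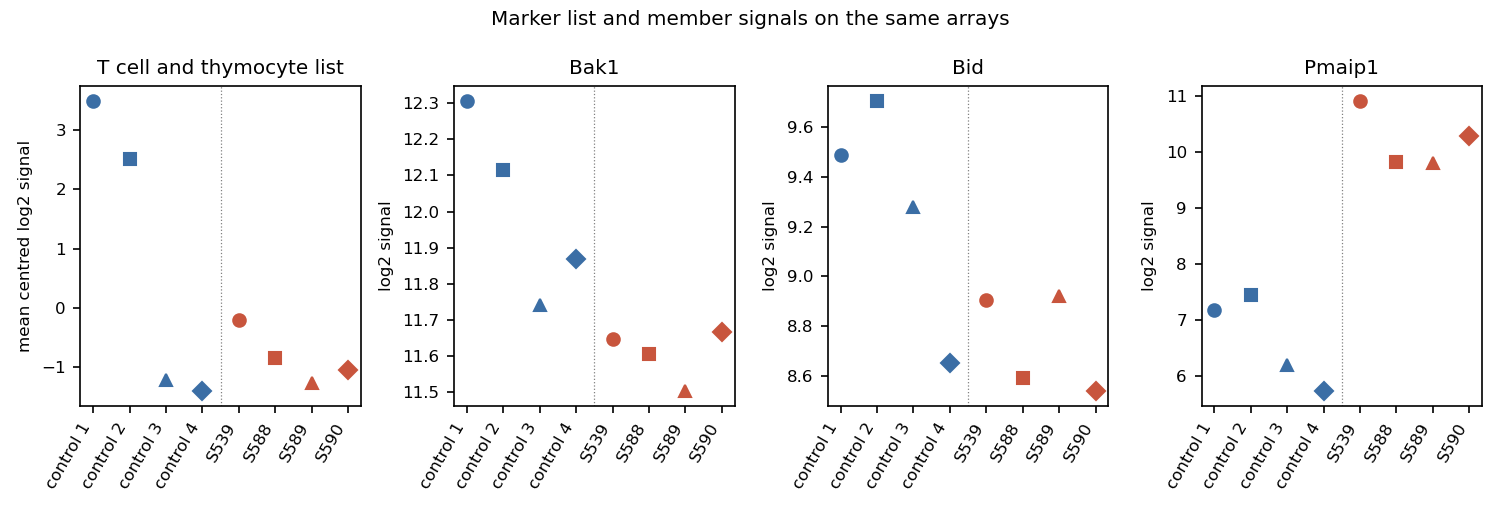
Mean centred log2 signal of the T cell and thymocyte list, and log2 signals of Bak1, Bid and Pmaip1 (y axes, each with its own range), on each of the 8 arrays (x axis). Control replicates 1 and 2 are the highest on the list and the highest controls for all 3 genes.

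Other properties of the arrays were mixed, and intensity before normalization differed in part between the groups. All 8 arrays came from 1 slide and 1 scan, with the exposed glands at the first positions and the controls at the last, so that slide position and exposure cannot be told apart. The share of probes well above background was 60.5% to 75% on the controls and 70.9% to 77.3% on the exposed arrays, and no spot was saturated. Thyroglobulin (Tg), the defining product of the follicle, had log2 signals from 18.70 to 19.07 over all arrays, and none of 11 thyrocyte genes was called. The muscle list was lowest on S539 and S589 (-1.41 and -1.19, against -0.17 or more elsewhere), and the neutrophil list was highest on S588 (2.61, against 0.58 or less elsewhere), and the part of either in a member's value was not tested. None of the genes on the lists of B cells, endothelium, fibroblasts, C cells, parathyroid or adipocytes was called.

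The profiles of 3 members over the 8 arrays were set against those of 13410 genes whose log2 signal averaged 7 or more. Nearest to Bax were 4632434I11Rik, Cox6b2, Inf2, Dcxr and Psrc1, with Pearson's r from 0.994 to 0.999, all 5 of them called higher with log2 fold changes from 1.70 to 4.33. Nearest to Bcl2l1 were Ctxn1, Mapk13, Ankrd13d, Nmur2 and Foxj1, with r from 0.99 to 0.995 and log2 fold changes from 0.91 to 2.49, of which Nmur2 and Foxj1 were called. Nearest to Bcl2 were Sub1, Cnpy2, Emb and Sestd1, with r from 0.981 to 0.986 and none called. These coefficients describe likeness among the highest of many, over arrays that share a slide and a normalization, and for Bax and Bcl2l1 they carry the difference between the groups.

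**Figure D5:**
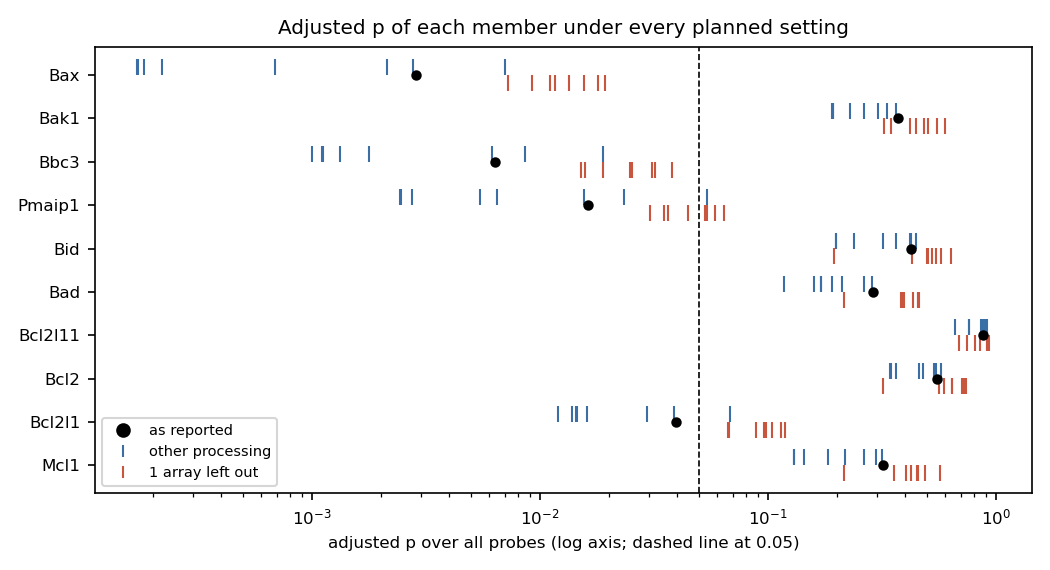
Adjusted p over all probes (x axis, logarithmic) of each member gene's probe as reported, under the other ways of processing, and in fits without 1 of the arrays; the dashed line marks 0.05. Bax and Bbc3 stay to the left of the line throughout, Pmaip1 and Bcl2l1 lie on both sides, and the other 6 genes stay to the right.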

How the data were processed

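Spot intensity, with and without background subtraction, was deposited by the authors for all arrays as written by Feature Extraction 10.7.3.1. The authors also deposited a table of log2 values, used here as an alternative. Their methods state quantile normalization and limma. Here the processed, background-subtracted intensity was turned to log2 and quantile-normalized over 8 arrays, control spots were removed, and spots of 1 probe were averaged (55681 probes from 59305 spots). Groups were taken from the labels. R 4.3.3 and limma 3.58.1 (lmFit, eBayes) were used with Benjamini-Hochberg adjustment over all probes and a threshold of 0.05. The procedure was tested on simulated data. A gene was read from its RefSeq probe with the highest mean signal. Where a pair of members was compared, the exact two-sided permutation test took all 70 assignments of the arrays. For the level of a list, the log2 signals of its genes were centred gene by gene and then averaged within each array. Replicates are separate biological samples according to the methods, and precision is limited by how many arrays there are.

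The genes named are all members with every probe, pathway genes past the threshold or needed for a range, Cdkn1a and Mdm2, and the 5 genes of highest Pearson correlation with Bax, Bcl2l1 and Bcl2. Birc3, Apaf1, Bmf, Bcl2a1c, Bcl2a1d, Ddit3, Vdac2 and Trp53 were named after their values were seen. The members and all lists were chosen with earlier results of these data known, so the counts over them are descriptions. Positions of probes were read from the array files (mm9), and promoters are from RefSeq (GRCm38.p6). The position and sequence of the Pmaip1 probe, and the values of some genes of the lists and of the correlation, are not reported here. The alternatives were the 75th percentile as scale, background correction by normexp (offset 50), no background correction, the deposited log2 values, a filter on dim probes, removal of marked spots, an intensity trend, the methods' t-test, the median over a gene's probes, and each array left out in turn under the normalization of all 8.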

Additional observations from a re-analysis of the deposited data

Results flagged for a closer look

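In 72 groups of 4 arrays, an array whose gap to its nearest neighbour took up most of the group's range (Dixon's 95% critical value) was looked for, and 2 were found, where chance alone gives about 3.6. The Apaf1 log2 signal of control replicate 1 was 6.28, while the other 3 controls lay between 7.26 and 7.35. The 75th percentile of the signal before normalization was 701.1 on the same array and between 1144 and 1230 on the other controls. On the exposed arrays it lay between 712 and 890.7. None of the 14 probes of the members had such an array in either group.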

How the results depend on the processing

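Bax and Bbc3 kept their direction and their side of the threshold under all 16 alternative settings listed with the methods. Of the 164 values computed for the member genes, 146 were scored as the same. For the median over a gene's probes, which has no p, the same meant a shift smaller than the SD between arrays. The Bcl2l11 median is counted there although its sign changed. With 1 array left out, 100 to 481 probes were called in place of 435, 2 to 3 member genes and probes in place of 4, and 4 to 9 of the p53 reference targets in place of 10; the log2 fold change was 3.27 to 3.85 for Pmaip1, 1.04 to 1.26 for Bcl2l1 (not called in any), -0.13 to 0.25 for Bcl2l11 (below 0 without control replicate 4, at -0.13), and the Bcl2l1 minus Mcl1 difference was 0.53 to 0.87. The number of probes called was 856 with normexp, 962 without background correction, 955 with the deposited values, 733 with the filter on dim probes (36135 tested), 744 with the intensity trend and 289 with the methods' t-test. The Pmaip1 change was 2.65 with normexp, 2.71 without background correction and 2.73 with the deposited values, in place of 3.58, and was called in each. The t-test called 2 member genes and 2 probes, Pmaip1 (log2 fold change 3.58, adjusted p = 0.0542) and Bcl2l1 (1.18, adjusted p = 0.0678) being lost. The Bcl2l11 change was -0.044 with normexp, -0.10 without background correction, -0.10 with the deposited values and -0.03 as the median over its probes. Its second probe was 0.17 under scaling to the 75th percentile, where the median of all probes shifted from 0.01 to 0.16. Of the called probes 84.7% were higher under that scaling and 67.5% with the deposited values, in place of 75.2%. Apoptosome genes called were 1 under that scaling, 3 with normexp, 2 without background correction, 2 with the deposited values and 1 with the trend (Apaf1 higher and Birc3 lower among them). Other family genes called were 1 with normexp, 2 without background correction, 2 with the deposited values, 1 with the dim filter and 1 with the trend (Bcl2a1d lower, with Bmf lower in both counts of 2).

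Without control replicates 1 and 2, chosen after the data were seen, 89 probes, 2 member probes, 2 member genes and 1 p53 reference target were called, Bbc3 was 1.82 (adjusted p = 0.0789), Bcl2l1 was 1.33 (adjusted p = 0.138), and the 3 differences between members were 2.18, 2.46 and 0.89, each with an adjusted exact permutation p of 0.0667. The cause of these changes was not tested. Depth does not apply to arrays, and signal over background limits the readings of Bcl2l11 and of the Pmaip1 controls. No paired analysis was possible because the groups share no replicate numbers.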
